A study of Mus musculus with 16 samples.

Results

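Genes that mark the endothelium, the cell layer lining blood and lymph vessels, were followed in whole kidneys of Klotho mutant and control mice. They were chosen by symbol and not by level: Pecam1, Cdh5, Kdr, Flt1, Tek, Emcn, Ehd3, Plvap, Eng and Esam, 10 of the 30277 genes in each deposited table, and all 10 symbols were found in both. The kidneys came from 129S1/SvlmJ mice with a recessive germline mutation of Klotho (Kl) that is not limited to the kidney or to endothelium, and RNA was sequenced as 16 libraries from male and female animals of 44 to 54 days. The male groups were 3 heterozygous controls (+/Kl, 45 to 46 days) and 5 Kl/Kl mice (44 to 47 days), and the female groups were 4 wild-type controls (+/+, 45 to 49 days) and 4 Kl/Kl mice (45 to 54 days). Per the labels the Kl/Kl mice were in renal failure and the controls had healthy kidneys, and the kidneys were perfused before freezing. Control genotype, table and sex changed together, so those cannot be told apart. The labels give every library a name of its own, and ages differ within all 4 groups, but the number of animals is not stated. The p-values speak only of the spread among these libraries. The values were TPM, deposited in 1 table for each sex and scaled there by the whole genomic span of a gene with its introns, so a level is comparable between libraries of a table but should not be ranked between genes as TPM per transcript would be.

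Endothelial cells hold their contacts with adhesion molecules such as PECAM-1, VE-cadherin (Cdh5) and ESAM, and they survive and sprout through the VEGF receptors (Kdr and Flt1), the angiopoietin receptor (Tek) and endoglin (Eng), a co-receptor for BMP ligands. The kidney has several vascular beds with different walls: glomerular capillaries with open pores, in which Ehd3 is enriched, and peritubular capillaries and ascending vasa recta, whose pores are closed by diaphragms built of PLVAP. Klotho, made mainly by tubule cells, pairs with FGF receptors to bind FGF23, a hormone of phosphate balance, and mice without it develop high phosphate and vascular calcification. In bulk RNA, fewer endothelial cells and less RNA per cell cannot be told apart.

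In the mm39 coordinates of the deposited tables, all 10 are annotated as protein-coding, and each value covers the whole gene rather than an exon or a UTR. The adhesion genes are Pecam1 (chr11:106545043-106641455, minus strand), Cdh5 (chr8:104828257-104871144, plus strand) and Esam (chr9:37439374-37449616, plus strand). The receptor genes are Kdr (chr5:76093487-76139119, minus), Flt1 (chr5:147498414-147662822, minus), Tek (chr4:94627526-94763214, plus) and Eng (chr2:32536607-32572682, plus). The surface mucin gene Emcn is at chr3:137046828-137137947 (plus), the endocytic recycling gene Ehd3 at chr17:74111129-74139090 (plus) and Plvap at chr8:71950409-71964397 (minus). Plvap shares part of its span with Gtpbp3 on the other strand, and Eng with Fpgs on the other strand and a small nucleolar RNA gene, Gm26236. The use of strand in counting is not given in the sources used here, so reads of these pairs may not be separable. The other 8 genes overlap no listed gene. Multiplying by the span gave estimated reads per library with medians from 811 for Esam to 4458 for Plvap.

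RefSeq start regions were at hand for 6 of the 10 (Kdr, Flt1, Tek, Emcn, Ehd3 and Eng), in build GRCm38.p6, whose positions are not those of the tables. Shown here are the 250 bases before the start of the pair of VEGF receptor genes and of Tek and Ehd3, the genes that followed the rest least closely. Capitals mark GGAA or its reverse complement TTCC, the core bound by ETS transcription factors, a family with members that act in endothelium. Kdr lies on the minus strand at chr5:75978456-75978705, Flt1 on the minus strand at chr5:147726012-147726261, Tek on the plus strand at chr4:94739039-94739288 and Ehd3 on the plus strand at chr17:73804591-73804840.
Kdr: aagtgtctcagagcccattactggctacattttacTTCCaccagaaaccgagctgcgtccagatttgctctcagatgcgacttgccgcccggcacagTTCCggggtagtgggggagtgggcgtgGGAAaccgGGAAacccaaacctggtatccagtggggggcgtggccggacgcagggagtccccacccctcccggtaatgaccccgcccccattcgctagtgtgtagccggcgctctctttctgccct
Flt1: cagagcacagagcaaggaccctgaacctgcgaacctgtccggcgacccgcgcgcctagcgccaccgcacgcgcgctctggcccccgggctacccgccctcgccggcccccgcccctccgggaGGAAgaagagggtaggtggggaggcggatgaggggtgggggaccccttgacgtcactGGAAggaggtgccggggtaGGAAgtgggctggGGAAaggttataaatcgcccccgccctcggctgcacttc
Tek: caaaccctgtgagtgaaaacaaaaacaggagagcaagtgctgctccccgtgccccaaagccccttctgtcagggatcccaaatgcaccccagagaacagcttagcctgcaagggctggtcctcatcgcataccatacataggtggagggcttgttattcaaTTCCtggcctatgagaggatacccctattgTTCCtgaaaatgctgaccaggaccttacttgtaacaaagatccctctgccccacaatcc
Ehd3: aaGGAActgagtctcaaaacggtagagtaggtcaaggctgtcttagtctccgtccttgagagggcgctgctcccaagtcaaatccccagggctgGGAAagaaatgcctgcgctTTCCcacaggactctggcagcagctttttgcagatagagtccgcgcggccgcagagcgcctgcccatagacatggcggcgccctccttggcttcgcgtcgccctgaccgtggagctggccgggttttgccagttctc
On both strands together the core occurs 4 times before Kdr, Flt1 and Emcn, 3 times before Ehd3 and Eng and 2 times before Tek. It occurs at least once in 93.4% of 32851 RefSeq start regions of the same length, with a median of 3, so these counts do not set the genes apart. The sequence TATAAA, found in 12.4% of start regions, occurs 1 time before Flt1 and 0 times before the other 5. CANNTG, the E-box, found in 66.2%, occurs 2 times before Tek, 1 time before Kdr, Emcn and Eng and 0 times before Flt1 and Ehd3. A match describes the letters only.

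The libraries held an estimated 21.5 to 31.7 M reads. Kl itself was lower in every Kl/Kl library than in every control of its sex: it averaged 0.112 TPM in Kl/Kl males (SD 0.108, n = 5) against 10.2 TPM in male controls (SD 5.56, n = 3). The averages were 0.239 TPM in Kl/Kl females (SD 0.224, n = 4) against 15.7 TPM in female controls (SD 5.22, n = 4). A pair of libraries stood apart from the rest. Female Kl/Kl replicate 3, also the oldest at 54 days, held almost no tubule RNA: its 9 proximal tubule markers stood at a median of 0.215% of the other female libraries, while all 8 heart muscle genes, such as Nppa at 1185 TPM, were at their highest of the table. It goes against its kidney label. Male control replicate 3 had a median of 28.8% of the other male libraries for the proximal tubule markers, and 54.3% of its values by TPM were mitochondrial against 35.4% to 44.8% in the other male libraries. The tested differences of the endothelial genes are given with and without these libraries.

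In males, all 10 genes had higher means in Kl/Kl kidneys than in controls, by 1.21 to 1.84 times, and none passed the test. Without control replicate 3, the lowest male library for all 10, the ratios of means ran from 0.983 for Tek to 1.51 for Flt1. On log2(TPM + 0.1) the difference was above 0 for 10 of the 10 genes and for 72.6% of all genes, and without that replicate for 9 of 10 and 55.3%. The comparison asks whether the vascular compartment of a failing kidney differs from that of a control kidney. The test was limma on log2(TPM + 1) over genes averaging at least 1 TPM, with Benjamini-Hochberg adjustment over all genes and a threshold of 0.05. Only 5 of the 10 (Kdr, Ehd3, Plvap, Eng and Esam) reach that mean, so the other 5 are tested on log2(TPM + 0.1) with a minimum mean of 0.1 TPM, which all 10 reach.

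**Figure D1:**
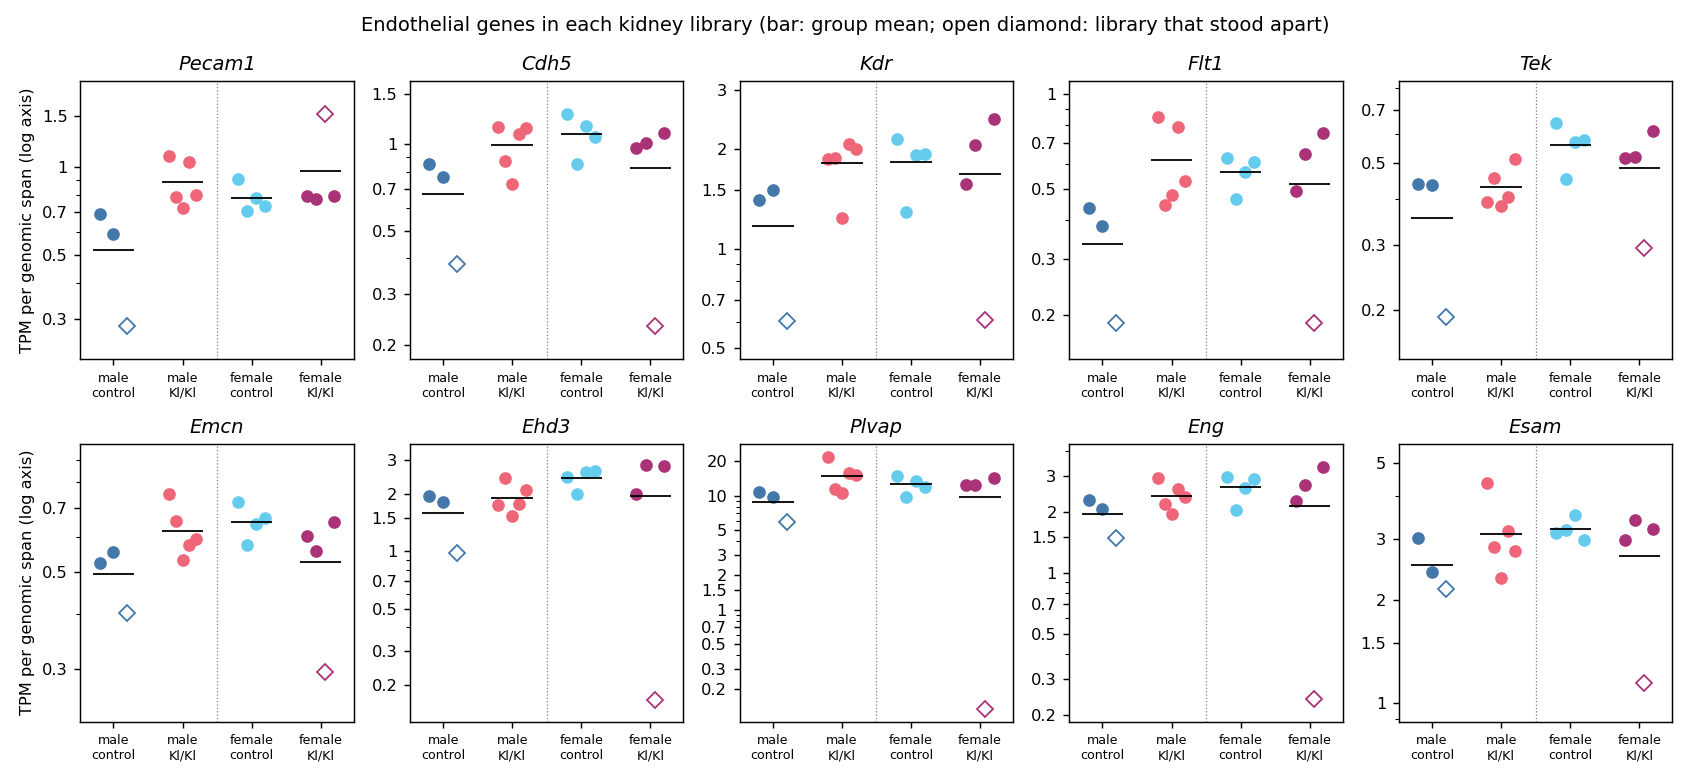
TPM of each endothelial gene (log axis, scaled by genomic span) in the 16 libraries by group; filled circles are libraries, open diamonds are male control replicate 3 and female Kl/Kl replicate 3, and bars are group means. Male control replicate 3 is the lowest male library for all 10 genes, and female Kl/Kl replicate 3 is the lowest female library for all but Pecam1, where it is the highest at 1.52 TPM.

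Pecam1, an adhesion molecule of endothelial junctions that platelets and leukocytes also carry, stood at 0.687, 0.586 and 0.285 TPM in male control replicates 1 to 3, and at 1.089, 0.787, 0.723, 1.041 and 0.802 TPM in Kl/Kl replicates 1 to 5. Every Kl/Kl male lay above every control. It averaged 0.889 TPM in Kl/Kl (SD 0.165, n = 5) against 0.519 TPM in controls (SD 0.21, n = 3), and the difference was 0.72 on the log2(TPM + 0.1) scale (95% interval 0.14 to 1.31, limma adjusted p = 0.123). Without male control replicate 3 it was 0.41 (-0.0084 to 0.83, adjusted p = 0.186), a ratio of means of 1.4 in place of 1.71.

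Cdh5, the cadherin of endothelial adherens junctions, stood at 0.854, 0.768 and 0.384 TPM in male controls and at 1.150, 0.872, 0.724, 1.084 and 1.135 TPM in Kl/Kl males. Here 4 of the 5 Kl/Kl libraries were above the controls and replicate 3 lay within the control range. Its difference was 0.55 with limma adjusted p = 0.213, and 0.25 with adjusted p = 0.426 without the third control. Esam, an immunoglobulin-like adhesion protein of endothelial tight junctions and platelets, overlapped more: 3.03, 2.41 and 2.15 TPM in controls against 4.38, 2.85, 2.32, 3.17 and 2.78 TPM. Its high value was Kl/Kl replicate 1, only 2 of the 5 were above all controls, and the difference on log2(TPM + 1) was 0.21 (-0.19 to 0.60, limma adjusted p = 0.466), and 0.13 (-0.29 to 0.54, adjusted p = 0.653) without control replicate 3.

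Of the VEGF receptors, Flt1 (VEGFR1, which binds VEGF tightly and signals weakly) stood at 0.435, 0.383 and 0.189 TPM in male controls and at 0.846, 0.445, 0.481, 0.790 and 0.533 TPM in Kl/Kl males. The groups did not overlap, but Kl/Kl replicate 2 was only just above control replicate 1, and replicates 1 and 4 were well above the other 3. The ratio of means, 1.84, was the highest of the 10 genes. The difference was 0.73 on log2(TPM + 0.1) (0.11 to 1.36, limma adjusted p = 0.138), and 0.46 (-0.12 to 1.04, adjusted p = 0.264) without control replicate 3. Pecam1 and Flt1 were the only genes of the 10 with every Kl/Kl male above every control. That holds for 19% of all 17382 genes averaging at least 0.1 TPM, and for 20.8% without control replicate 3, so 2 of 10 is near the background.

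Kdr (VEGFR2, the main signalling receptor for VEGF) stood at 1.398, 1.501 and 0.604 TPM in male controls and at 1.87, 1.87, 1.24, 2.07 and 2.00 TPM in Kl/Kl males. Replicate 3 of the Kl/Kl males was low, within the controls, and the other 4 were above them. The difference on log2(TPM + 1) was 0.39 (0.0046 to 0.78, limma unadjusted p = 0.048, adjusted p = 0.182). Without control replicate 3 it fell to 0.19 with adjusted p = 0.345.

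Tek (Tie2, the receptor for angiopoietins, which steady vessels) stood at 0.439, 0.438 and 0.192 TPM in male controls and at 0.392, 0.458, 0.384, 0.405 and 0.516 TPM in Kl/Kl males. The difference was 0.27 on log2(TPM + 0.1) with all libraries (limma adjusted p = 0.476) and -0.026 (-0.35 to 0.30) without control replicate 3, a change of direction. Eng, the BMP co-receptor, stood at 2.30, 2.08 and 1.49 TPM in controls against 2.94, 2.20, 1.96, 2.601 and 2.37 TPM in Kl/Kl males. The groups overlapped, with a difference of 0.21 on log2(TPM + 1) (-0.13 to 0.55, limma adjusted p = 0.384), and 0.093 (-0.19 to 0.37, adjusted p = 0.624) without control replicate 3.

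Plvap, the protein of the diaphragms that bridge endothelial pores, stood at 10.9, 9.78 and 5.85 TPM in male controls and at 21.9, 11.4, 10.5, 15.8 and 15.2 TPM in Kl/Kl males. Replicate 1 of the Kl/Kl males was the highest male library while replicate 3 lay within the controls, so 4 of 5 were above every control. It averaged 15.0 TPM in Kl/Kl (SD 4.51, n = 5) against 8.83 TPM in controls (SD 2.64, n = 3), a difference of 0.70 on log2(TPM + 1) (0.11 to 1.29, limma unadjusted p = 0.025, adjusted p = 0.132), and 0.46 (-0.13 to 1.04, adjusted p = 0.248) without control replicate 3.

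Ehd3, an endocytic recycling protein enriched in glomerular endothelium, stood at 1.96, 1.81 and 0.982 TPM in male controls and at 1.75, 2.41, 1.54, 1.76 and 2.10 TPM in Kl/Kl males. The groups overlapped throughout, and the difference on log2(TPM + 1) was 0.19 (-0.18 to 0.56, limma adjusted p = 0.477) with all libraries and 0.0077 (-0.28 to 0.29) without control replicate 3. Emcn, the mucin endomucin of capillary and venous endothelium, stood at 0.522, 0.554 and 0.403 TPM in controls and at 0.753, 0.653, 0.530, 0.574 and 0.592 TPM in Kl/Kl males. Only replicate 3 of the Kl/Kl males was within the controls, but the gap was small: 0.28 on log2(TPM + 0.1) (-0.13 to 0.69, limma adjusted p = 0.341), and 0.17 (-0.17 to 0.51, adjusted p = 0.477) without control replicate 3.

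Counted over the set, 0 of the 5 genes that entered the test on log2(TPM + 1) were called in males, where 5.92% of 8439 genes were called, and 2 of the 5 (Kdr and Plvap) had an unadjusted p under 0.05. Without control replicate 3 it was 0 of 5 against 10.5% of 8640 genes. On log2(TPM + 0.1), 0 of 10 were called against 5.22% of 17382 (0 of 10 against 7.07% without control replicate 3), with 3 of 10 (Pecam1, Flt1 and Plvap) under an unadjusted 0.05. The male table moved as a whole: the median difference of all genes was 0.19 with all libraries, 0.010 without control replicate 3 and 0.014 with median-of-ratios scaling. Read against it, the median of the 5 tested genes was 0.21 with all libraries, 0.13 without the replicate and 0.038 with that scaling. For all 10 on log2(TPM + 0.1) it was 0.43 beside 0.27 for all genes, and 0.21 beside 0.056 without the replicate.

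A scale of estimated RPM (reads relative to the library's total, in place of the authors' scaling) was the one setting that called more than 1 of the 10. On it Pecam1 (0.72, limma adjusted p = 0.017) and Flt1 (0.79, adjusted p = 0.029) rose, 2 of 10 against 16.1% of 15717 genes called higher and 21.6% called in either direction. Without control replicate 3 only Pecam1 was called (0.55, adjusted p = 0.041), 1 of 10 against 13.9% called higher and 19.8% called in either direction. Over the alternatives run, the adjusted p of Pecam1 went from 0.0174 to 0.186 and that of Flt1 from 0.0292 to 0.264.

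**Figure D2:**
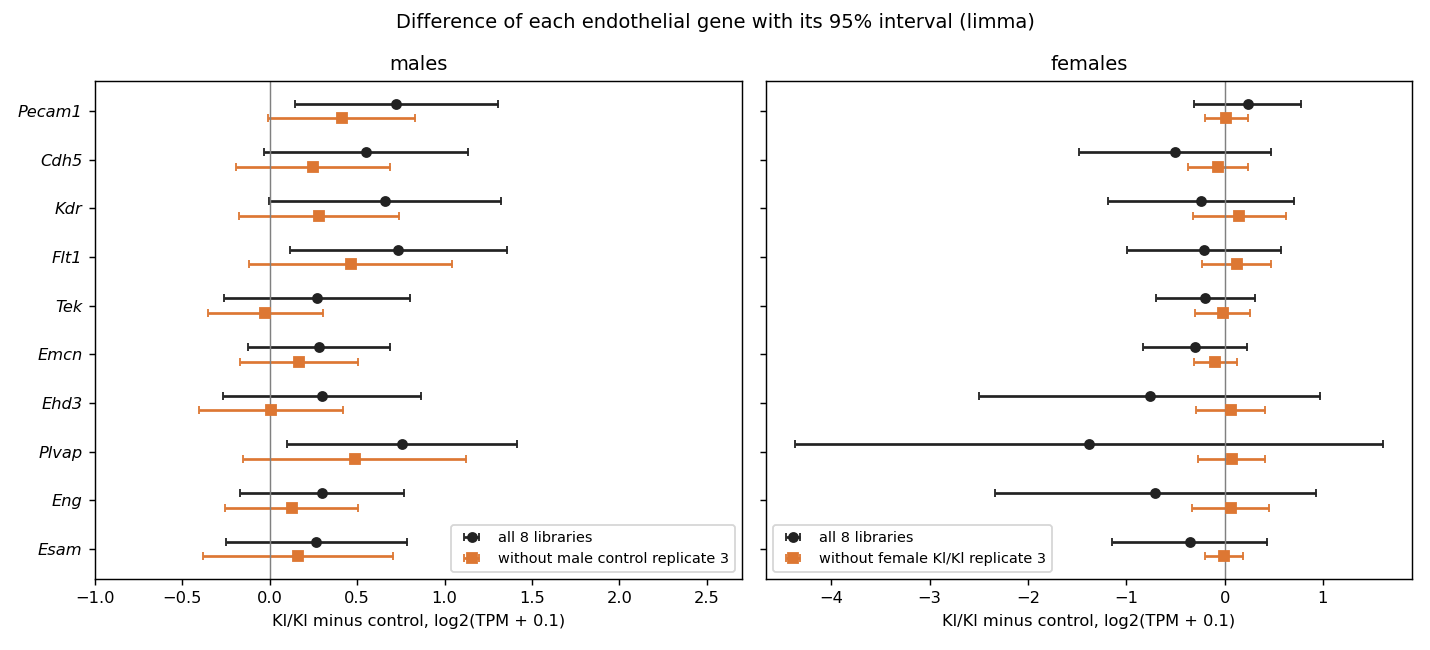
Kl/Kl minus control for each endothelial gene on log2(TPM + 0.1), with 95% intervals from limma, in males (left) and females (right, on its own axis); black circles use all 8 libraries of a table and orange squares leave out the library that stood apart. In males the estimates shrink without male control replicate 3, and in females those of all 10 genes lie between -0.094 and 0.15 without female Kl/Kl replicate 3.

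In females, none of the 10 genes was called between Kl/Kl and control kidneys, and without replicate 3 the estimates were close to 0 with narrow intervals for several genes. Only 3 of 8596 genes (0.0349%) were called in females by limma on log2(TPM + 1), 414 had an unadjusted p under 0.05, and 0 of the 5 tested endothelial genes had either. Without Kl/Kl replicate 3, 9 of 8748 genes (0.103%) were called and 0 of 6 endothelial genes, with 1614 genes and 0 of the 6 under an unadjusted 0.05. On log2(TPM + 0.1), 0 of 17747 genes (0%) were called with all libraries and 0 of 17509 (0%) without replicate 3.

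Among the adhesion genes, Pecam1 stood at 0.907, 0.705, 0.780 and 0.736 TPM in female controls and at 0.796, 0.777 and 0.797 TPM in Kl/Kl replicates 1, 2 and 4, with 1.52 TPM in replicate 3. Those 3 Kl/Kl libraries lay close together and inside the control range, and without replicate 3 the difference was 0.018 on log2(TPM + 0.1) (-0.20 to 0.24, limma adjusted p = 0.947). Cdh5 stood at 1.28, 0.853, 1.16 and 1.06 TPM in controls and at 0.973, 1.01, 0.232 and 1.09 TPM in Kl/Kl replicates 1 to 4. Replicate 3 alone was low, and without it the difference on the same scale was -0.065 (-0.37 to 0.24). Esam stood at 3.14, 3.20, 3.54 and 2.99 TPM in controls and at 2.98, 3.41, 1.15 and 3.21 TPM in Kl/Kl females. Its difference without replicate 3 was -0.0042 (-0.16 to 0.15) on log2(TPM + 1), another scale than for Pecam1 and Cdh5.

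The receptors overlapped too. Kdr stood at 2.15, 1.29, 1.92 and 1.93 TPM in female controls and at 1.57, 2.06, 0.609 and 2.46 TPM in Kl/Kl females, and Kl/Kl replicate 4 was the only library above all controls. Flt1 stood at 0.628, 0.465, 0.568 and 0.609 TPM in controls and at 0.492, 0.647, 0.189 and 0.755 TPM in Kl/Kl females. Without replicate 3 the differences on log2(TPM + 0.1) were 0.15 (-0.32 to 0.62) for Kdr and 0.12 (-0.23 to 0.47) for Flt1. The male Flt1 difference without control replicate 3, 0.46, lies just inside that female interval. On the same scale, the male Pecam1 difference lies above its female interval and that of Cdh5 at the upper edge of its own. The other genes are not compared in this way, and the direct test follows further down. Tek stood at 0.643, 0.454, 0.570 and 0.578 TPM in controls and at 0.518, 0.522, 0.296 and 0.612 TPM in Kl/Kl females. For Eng the values were 3.00, 2.05, 2.64 and 2.91 TPM against 2.28, 2.71, 0.240 and 3.34 TPM. Both genes overlapped, with differences without replicate 3 of -0.020 (-0.30 to 0.26) and 0.063 (-0.33 to 0.45) on log2(TPM + 0.1).

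Of the genes tied to a vascular bed, Plvap stood at 14.9, 9.71, 13.5 and 12.0 TPM in female controls and at 12.5, 12.4, 0.136 and 14.2 TPM in Kl/Kl females. Ehd3 stood at 2.45, 1.99, 2.59 and 2.63 TPM in controls and at 2.00, 2.82, 0.166 and 2.81 TPM in Kl/Kl females. Both were lowest by far in replicate 3, and the other libraries overlapped. Without replicate 3 the differences were 0.070 (-0.27 to 0.41) for Plvap and 0.062 (-0.29 to 0.41) for Ehd3 on log2(TPM + 0.1). Emcn stood at 0.722, 0.574, 0.642 and 0.663 TPM in controls and at 0.603, 0.556, 0.296 and 0.648 TPM in Kl/Kl females, a difference of -0.094 (-0.31 to 0.13) without replicate 3. Over the 10 genes the ratio of means without replicate 3 ran from 0.926 for Emcn to 1.11 for Kdr, and with all libraries from 0.761 for Cdh5 to 1.24 for Pecam1. With all libraries the differences on log2(TPM + 0.1) ran from -1.38 (-4.37 to 1.61) for Plvap to 0.23 (-0.31 to 0.78) for Pecam1, with a limma adjusted p of at least 0.769 for each.

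The female change minus the male change was tested directly in a model of all 16 libraries. It compares the tables, which differ in sex and control genotype together, so it is not a test of sex alone. It was below 0 for the 5 tested genes (-0.45 for Esam to -1.54 for Plvap, limma adjusted p = 0.542 for each), and 0 were called, against 0.211% of 8535 genes. The median of all genes was -0.33. Without both libraries that stood apart the 6 tested genes ran from -0.39 (-1.03 to 0.25) for Plvap to 0.040 (-0.33 to 0.41) for Ehd3, again 0 called, where 3.89% of 8696 genes were. On log2(TPM + 0.1) without both libraries, Pecam1 gave -0.39 (-0.82 to 0.035, adjusted p = 0.336) and Flt1 -0.34 (-0.98 to 0.31, adjusted p = 0.589), with 0 of 10 called against 2.39% of 17582 genes. A difference between the tables was therefore not shown for any of the 10 genes, and the intervals leave room for one.

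Female Kl/Kl replicate 3 is given by itself, since its endothelial genes went in different directions. Plvap was at 1.08% of the median of the other 7 female libraries, Ehd3 at 6.41% and Eng at 8.87%, while Tek was at 51.8% and Pecam1 at 194%. Of 24 further genes of endothelium in general, 13 were at their lowest of the female table and 8 at their highest. Among the highest were Gpihbp1, the capillary anchor of lipoprotein lipase, at 14.7 TPM against a median of 1.45 TPM, and Cd34, a sialomucin, at 4.58 against 1.51 TPM. Among the lowest were Notch4 at 0.064 against 1.26 TPM and Tie1 at 0.277 against 3.19 TPM. Of 12 vasa recta, artery and vein genes, 8 were at their lowest and 3 (Hey1, Bmx and Fbln5) at their highest. Ephb4, a venous receptor, was at 0.173 against 3.29 TPM, and Fbln5, a protein of elastic fibres, at 2.25 against 1.15 TPM. The library also had the highest level of the table for 8 of 8 heart muscle, 6 of 7 airway and alveolar, 4 of 4 adipocyte and 7 of 10 mural cell genes. The part of those other cells in its endothelial values was not tested. The shares of all genes at their lowest or highest in this library are not given here.

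**Figure D3:**
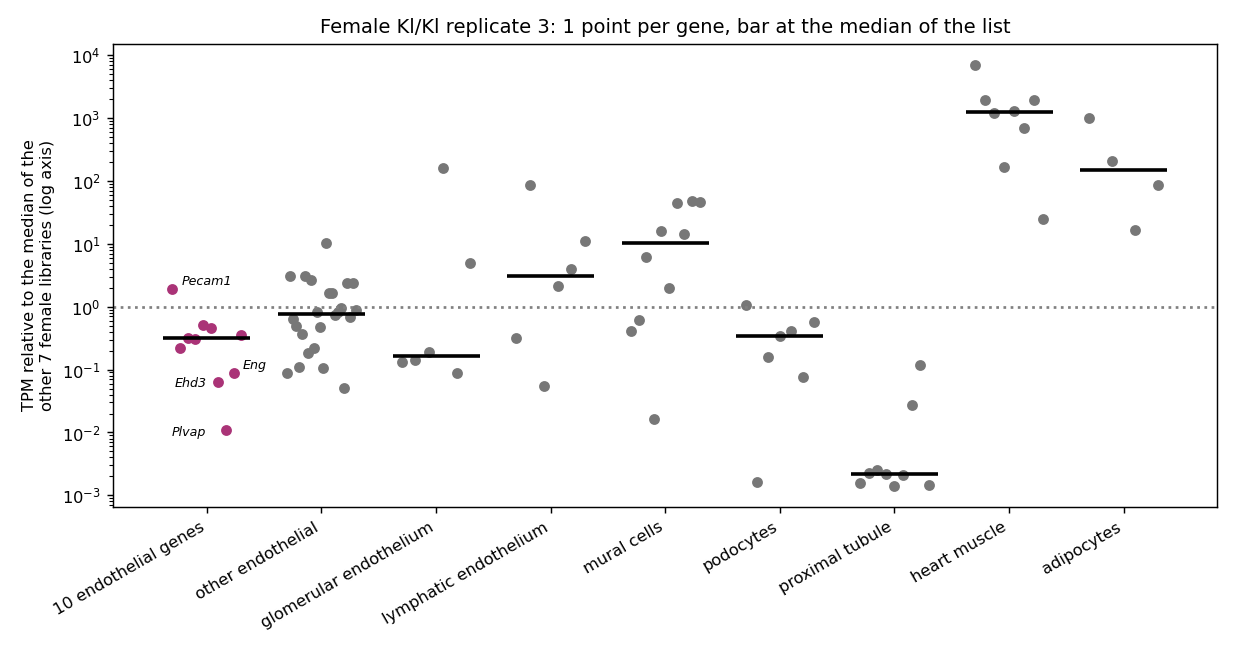
Level of single genes in female Kl/Kl replicate 3 divided by the median of the other 7 female libraries (log axis; 1 point per gene, bar at the median of each marker list, dotted line at 1). Proximal tubule genes lie at a median of 0.00215 and heart muscle genes at 1236, and the 10 endothelial genes spread from 0.0108 for Plvap to 1.94 for Pecam1.

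Male control replicate 3 was the lowest male library for all 10 endothelial genes, at a median of 47.5% of the other 7, for 7 of 7 podocyte genes and for 7 of 10 mural genes. It was also the lowest for 4 of 4 thick limb, 8 of 8 activation, 7 of 8 macrophage and 7 of 9 proximal tubule genes. The counts were 1 of 7 leukocyte and platelet, 0 of 5 red blood cell, 0 of 8 heart muscle and 0 of 4 adipocyte genes. The share of all genes at their lowest in this library is not given here. Relative to the geometric mean of Pecam1, Cdh5, Eng and Esam, its Kdr was 0.785 (0.983 and 1.23 in the other male controls), its Flt1 0.246 (0.306 and 0.313), its Emcn 0.525 (0.367 and 0.452) and its Plvap 7.61 (7.63 and 7.98).

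Dividing by that geometric mean describes how the other 6 genes stood relative to general endothelial markers. With all libraries, Flt1 went from 0.288 ± 0.037 (SD, n = 3) in male controls to 0.382 ± 0.058 (SD, n = 5) in Kl/Kl males, and Plvap from 7.74 ± 0.21 to 9.22 ± 1.16. Tek went from 0.305 to 0.277, Emcn from 0.448 to 0.393 and Ehd3 from 1.38 to 1.23. Kdr went from 0.998 to 1.14. The control ratios without replicate 3 were 0.309 for Flt1, 7.81 for Plvap, 0.333 for Tek, 0.410 for Emcn, 1.43 for Ehd3 and 1.10 for Kdr. So, by this reference, Kdr, Flt1 and Plvap stood higher and Tek, Emcn and Ehd3 lower in Kl/Kl males, with ranges that overlapped for all of these. Relative to Pecam1 and Cdh5 alone, Kdr did not stand higher in Kl/Kl males. In females without Kl/Kl replicate 3 the same ratios of Kl/Kl to control were between 0.927 for Emcn and 1.12 for Kdr. These are descriptions with no test.

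Markers of other cells moved in the male Kl/Kl kidneys beside the endothelial genes. Without control replicate 3, the summed level of the 10 endothelial genes was 20.3 to 22.5 TPM in male controls and 20.4 to 37.1 TPM in Kl/Kl males. The sum of 8 macrophage genes was 11.9 to 15.1 TPM in controls and 18.0 to 30.8 TPM in Kl/Kl males, and 2 of the 7 tested were called higher by limma, beside 3.16% of all genes (3 of 7 beside 3.74% with all libraries). The 7 leukocyte and platelet genes, which bear on Pecam1 and Esam, summed to 0.549 to 0.731 TPM and 0.581 to 0.940 TPM, none with a mean of 1 TPM. The 4 adipocyte genes, with 0 of 2 tested called, summed to 7.75 to 11.8 TPM and 9.59 to 40.5 TPM, and the 10 mural genes, with 0 of 6 called, to 9.52 to 12.5 TPM and 12.0 to 23.9 TPM. Beside these, 10.5% of all genes were called in either direction without control replicate 3. In Kl/Kl replicates 1 to 5, in that order, the endothelial sum was 37.1, 24.0, 20.4, 29.3 and 28.0 TPM, the adipocyte sum 40.5, 26.2, 31.1, 12.9 and 9.59 TPM and the macrophage sum 25.0, 30.8, 18.0, 28.9 and 25.9 TPM. Replicate 1 was the highest for endothelial and adipocyte genes. Replicate 3, the lowest for endothelial and macrophage genes, was next to it for adipocyte genes. Replicate 2, low for endothelial genes, was the highest for macrophage genes. The red blood cell sum was 209.8, 206.3, 39.3, 121.4 and 128.0 TPM in the same order (34.2 to 143.3 TPM in controls). Like the endothelial sum, it was highest in replicate 1 and lowest in replicate 3. The proximal tubule sum was 378, 446, 438, 323 and 535 TPM, against 564 to 630 TPM in controls. No gene of these lists is listed at 0. Their part in the endothelial values was not tested.

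Across the 14 libraries other than the 2 that stood apart, the endothelial genes varied together within a table. After subtracting each table's mean, 43 of 45 pairs had a Pearson correlation above 0, with a median of 0.65 and a range of -0.15 (Tek with Esam) to 0.90 (Pecam1 with Plvap). The libraries share their depth and scaling, and the difference between Kl/Kl and control was left in the values. Pairs of other genes were not counted for comparison, so these are descriptions. Kdr with Flt1 gave 0.69 and Flt1 with Plvap 0.87. Cdh5 (0.90), Eng (0.89) and Plvap (0.88) followed the mean of the other 9 most closely, and Ehd3 (0.33) and Tek (0.39), the genes whose start regions are printed above with those of the VEGF receptors, least. With all 16 libraries the median pair rose to 0.84, but Pecam1 with Plvap turned to -0.27, which rests on female Kl/Kl replicate 3.

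**Figure D4:**
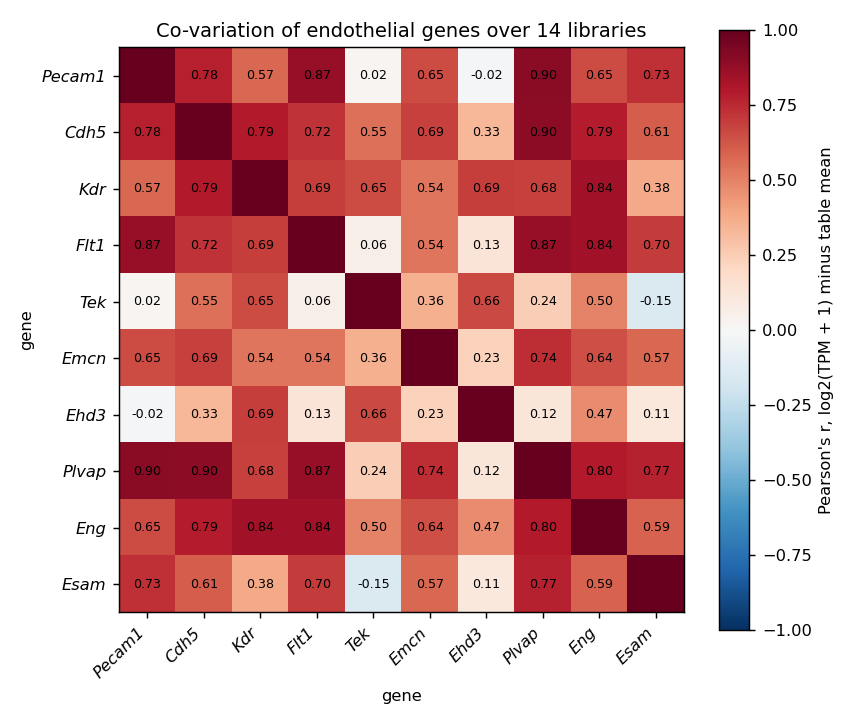
Pearson correlation between each pair of endothelial genes over 14 libraries, on log2(TPM + 1) after subtracting the mean of each table (red above 0, blue below 0). Tek and Ehd3 have the palest rows, and Pecam1, Flt1 and Plvap share correlations of 0.87 to 0.90.

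Among 6585 genes averaging at least 1 TPM in both tables, those most like the mean of the 10 over the same 14 libraries were Tie1 (Pearson r = 0.95), Ncdn (0.95), Cds2 (0.94), Zfp784 (0.94) and Ubqln2 (0.93), where the median gene had 0.24. Ncdn, Cds2, Zfp784 and Ubqln2 are in none of the gene lists used here, and they followed the mean about as closely as Tie1. Tie1 is an endothelial receptor, the partner of Tek. It stood at 1.98 ± 0.688 TPM (SD, n = 3) in male controls and 3.17 ± 0.641 TPM (SD, n = 5) in Kl/Kl males, a difference of 0.50 on log2(TPM + 1) (limma adjusted p = 0.133), and 0.30 (adjusted p = 0.220) without control replicate 3.

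Partners of the 10 genes were read from lists by role. Of the VEGF and angiopoietin ligands, co-receptors and partners, 3 of 12 reached a mean of 1 TPM in males and 0 were called, beside 5.92% of all genes. Vegfa, the main ligand of Kdr and Flt1, stood at 14.4 ± 0.171 TPM (SD, n = 3) in male controls and 13.8 ± 1.73 TPM (SD, n = 5) in Kl/Kl males, and at 16.0 and 16.3 TPM in females without replicate 3. Vegfb, a ligand of Flt1 and not of Kdr, stood at 7.84 and 7.88 TPM in males. Angpt1 and Angpt2, the ligands of Tek, stay below 1 TPM by this scaling. Of the endoglin pathway, 6 of 11 listed genes were tested in males and 0 called, beside the same 5.92%. With so few genes tested, 0 called is near that share in both lists. Its target genes Id1 (23.5 and 31.4 TPM) and Id2 (52.5 and 32.1 TPM) went in different directions, with limma adjusted p = 0.586 and 0.212 (0.671 and 0.220 without control replicate 3).

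Of 24 other endothelial genes, 16 were tested in males and 1 was called, a share near the 5.92% of all genes. Adgrf5, an adhesion receptor of endothelium also present in some kidney epithelial cells, rose from 1.05 TPM in controls (SD 0.461, n = 3) to 2.17 TPM in Kl/Kl (SD 0.317, n = 5), by 0.65 on log2(TPM + 1) (SE 0.17, limma adjusted p = 0.046), and every Kl/Kl male was above every control. Leaving out control replicate 3 gave 0.46 (adjusted p = 0.042). The median over the 16 was 0.42 beside 0.19 for all genes, and 0.34 beside 0.010 without the replicate. On estimated RPM 11 of the 24 were called higher and 0 lower, beside 16.1% of all genes called higher, and 7 without the replicate, beside 13.9%. Cldn5, a tight junction protein, stood at 8.12 and 13.8 TPM in males (0.66, adjusted p = 0.084, and 0.64, adjusted p = 0.093 without the replicate), and Thbd, the thrombin receptor thrombomodulin, at 6.20 and 10.4 TPM (0.72, adjusted p = 0.251, and 0.25, adjusted p = 0.653 without it).

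Of 12 endothelial transcription factors, 5 were tested in males and 1, Klf4, was called, beside 5.92% of all genes (again 1 of 5 beside 10.5% without control replicate 3). Klf4, which responds to blood flow in endothelium and is also made by other cells, rose from 1.62 TPM in controls (SD 0.229, n = 3) to 5.74 TPM in Kl/Kl (SD 1.90, n = 5), by 1.32 on log2(TPM + 1) (SE 0.22, limma adjusted p = 0.006), and by 1.28 (adjusted p = 0.021) without control replicate 3. Its groups did not overlap. In females without replicate 3 it stood at 2.72 and 4.68 TPM (0.57, adjusted p = 0.189). The female change minus the male change was -0.67 with all libraries (limma adjusted p = 0.542), which include both libraries that stood apart. The value without both is not given here. Klf2, its flow-responsive relative, stood at 6.14 and 11.9 TPM in males (0.77, adjusted p = 0.132, and 0.73, adjusted p = 0.195 without control replicate 3) and Sox18 at 5.22 and 7.69 TPM (0.47, adjusted p = 0.165, and 0.34, adjusted p = 0.240 without it).

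By vascular bed, 1 of 3 tested genes of glomerular endothelium was called in males, beside 5.92% of all genes, and 0 of 3 beside 10.5% without control replicate 3. Plat, tissue plasminogen activator, rose from 2.45 TPM in controls (SD 0.729, n = 3) to 6.05 TPM in Kl/Kl (SD 1.86, n = 5), by 1.01 (SE 0.23, limma adjusted p = 0.029), and the call was lost without control replicate 3 (0.86, adjusted p = 0.053). Tbx3 stood at 0.849 and 1.45 TPM and Lpl, which adipocytes also make, at 18.1 and 16.7 TPM. Of the vasa recta, artery and vein genes 0 of 5 were called, of lymphatic genes 0 of 1 and of activation genes 0 of 1. Icam1, a leukocyte adhesion receptor, stood at 1.02 and 1.77 TPM (0.45, adjusted p = 0.084, and 0.37, adjusted p = 0.105 without the replicate). In females 0 genes were called in any of the 18 lists, with all libraries or without Kl/Kl replicate 3, beside 0.0349% and 0.103% of all genes in that order.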

How the data were processed

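The authors deposited TPM values for 30277 genes in 1 table per sex, with 8 libraries each. The submitters' processing notes name Partek and build mm39, and for the aligner, the counting and strand the sources used here give nothing. Each column of a table has the same total, the values are scaled by genomic span, and no value is 0, since empty genes stand at 0.0001 read. Estimated reads are the TPM multiplied by the span and divided by that unit. They are not counts, so only the spread between libraries gives the precision.

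Genes averaging at least 1 TPM were tested on log2(TPM + 1) with limma 3.58.1 in R 4.3.3 (lmFit, eBayes with a trend), Kl/Kl against control within each table, with Benjamini-Hochberg adjustment over all genes. The female change minus the male change came from a 4-group model. The script was tested on simulated data. Tables and plots used Python 3.11.15, NumPy 2.4.6, pandas 2.3.3, SciPy 1.17.1 and matplotlib 3.10.9. Alternatives were log2(TPM + 0.1), no filter, median-of-ratios scaling, estimated RPM (reads relative to the library's total) with 0.5 added, array weights, the library name's prefix, age, a block for the replicate number and each library left out. Those combined with leaving out the libraries that stood apart, and the correlations over 16 libraries, were added after seeing the data.

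The 10 genes and all gene lists were chosen with earlier results of these data known. By rule, all 10 are named with every library, and from each other list up to 4 genes past the threshold and up to 2 by level; a few others are named as chosen after their values were seen: Gpihbp1, Cd34, Notch4, Tie1, Ephb4, Hey1, Bmx, Fbln5 and Angpt1 with Angpt2. A result of the rule for named genes is not reported here.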

Additional observations from a re-analysis of the deposited data

Results flagged for a closer look

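Of 30 groups of a gene with 4 or 5 libraries each, 4 held a library farther from the others than Dixon's critical value allows, and chance alone marks about 1 in 20. For 3 of the 4, that library was female Kl/Kl replicate 3: Pecam1 was at its highest there (1.52 TPM), and Cdh5 (0.232 TPM) and Plvap (0.136 TPM) at their lowest. The remaining one was Kdr in male Kl/Kl replicate 3, at 1.24 TPM the lowest of the 5 Kl/Kl males.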

How the results depend on the processing

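In males, 0 of the 10 genes were called with all libraries on log2(TPM + 0.1), and 0 of the 5 tested on log2(TPM + 1). Each fit on log2(TPM + 1) that left out 1 library called 0 of the 5 tested. The other 5, Pecam1 and Flt1 among them, entered no fit with 1 library left out except those without control replicate 3. On estimated RPM 2 were called, on that scale without control replicate 3 it was 1, and 1 (Plvap, 0.74 on log2) with the library name's prefix as a covariate. Tek turned to -0.026 on log2(TPM + 0.1) without control replicate 3. The number of all genes called in males, 500, went to 908 on log2(TPM + 0.1), 1199 with median-of-ratios scaling, 3401 on estimated RPM, 2829 with array weights and 1249 with the prefix, and to between 185 and 909 with 1 library left out. Without control replicate 3 it was 1236 on log2(TPM + 0.1), 3111 on estimated RPM and 1150 with median-of-ratios scaling. The number in females, 3, went to 8 with no filter, 0 on log2(TPM + 0.1), 1 on estimated RPM and 327 with array weights, and to between 2 and 9 with 1 library left out. Without Kl/Kl replicate 3 it was 12 with age as a covariate, 0 on log2(TPM + 0.1) and 62 on estimated RPM. Same-numbered libraries had correlations of -0.18 to 0.041 in males and -0.12 to 0.29 in females. In males no control correlated best with its own number. Leaving aside female Kl/Kl replicate 3, female controls 1, 2 and 4 each correlated best with their own number (0.063, -0.080 and 0.29). Those female pairs also shared their age (45, 45 and 48 days) and the prefix of the library name. So few libraries cannot show or exclude a pairing, and the main fits did not use one. Each same-numbered control and Kl/Kl also carry neighbouring numbers in their library names, such as 11 and 12 for male replicate 1. With a replicate block 227 genes were called in males and 0 in females, and 0 of the endothelial genes in either.

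In females the signs of several genes rest on Kl/Kl replicate 3. With 1 library left out the log2 difference ran from -0.27 to 0.10 for Kdr, -0.52 to 0.047 for Ehd3, -0.56 to 0.048 for Eng and -1.18 to 0.065 for Plvap, above 0 only without that replicate. For Kdr, Ehd3, Eng and Plvap in that order it was 0.14, 0.049, 0.082 and 0.10 with array weights. Without the replicate it was 0.14, 0.084, 0.086 and 0.092 with age as a covariate (0.0042 for Esam), 0.15, 0.062, 0.063 and 0.070 on log2(TPM + 0.1) (0.12 for Flt1), 0.15, 0.056, 0.057 and 0.063 on estimated RPM (0.13 for Flt1), and 0.052 for Kdr with median-of-ratios scaling. In the female change minus the male change, Ehd3 turned to 0.040 without both libraries that stood apart. On log2(TPM + 0.1), also without both libraries, Ehd3 turned to 0.055 and Tek to 0.0059. With array weights and all libraries, Eng turned to 0.012. None of these passed the threshold. With all libraries, the log2 ratio differences against Pecam1 and Cdh5 alone were -0.41 for Emcn, 0.18 for Flt1 and 0.021 for Plvap in males. For Kdr in males it was slightly below 0, the other direction than with Eng and Esam in the reference. In females these differences were -0.19 for Emcn, -0.11 for Flt1 and -0.096 for Kdr. The female values include Kl/Kl replicate 3, with Pecam1 at 1.52 TPM and Cdh5 at 0.232 TPM. The female ratios given further up leave that library out, so the 2 sets are not alike. The cause of these moves was not tested beyond the libraries left out.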
